A study of Mus musculus with 10 samples.

Results

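Ovalbumin-expressing B16-F10-OVA cells and their parental line were compared after the same cytokine treatment. Both are mouse melanoma cells, and the labels give the OVA genotype as pLV[Exp]-Neo-EF1A>{ovalbumin}, a lentiviral vector in which the EF1A promoter drives ovalbumin, a model antigen for T cells. The comparison was defined by line and treatment and took 6 of the 10 libraries of the series: 3 of the OVA line and 3 of the parental line, called WT, all given interferon gamma (IFN-γ) at 50 ng/ml for 24 h. The other 4 libraries, 2 untreated per line, gave the line difference without IFN-γ. The labels do not say whether the OVA line is a single clone or a pool, and they describe the vector only in the OVA line, with no line carrying an empty vector. A line difference here therefore covers the vector, ovalbumin, any selection and separate passage, which cannot be told apart. The ovalbumin transcript was not analysed here.

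IFN-γ binds its receptor and activates JAK kinases, which phosphorylate STAT family factors. STAT dimers bind GAS elements and induce Irf1 and other early genes, while a complex that holds IRF9 binds ISRE elements, the route of the type I interferons and of most antiviral genes. In melanoma cells the response raises antigen presentation, the immunoproteasome, chemokines that draw T cells, and the checkpoint ligand PD-L1. Separate programs known from tumour cells also enter the comparison: p53 induces cell cycle arrest and death genes, and the HIF factors induce glycolysis and mitophagy genes through HRE elements.

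The 6 libraries held from 17731959 to 19642533 counts, and all 10 held at least 17728722. Levels are CPM, read counts relative to the library total after scaling with TMM factors, and differences are log2 OVA minus WT. Within a treated group the lowest correlation of a library with another was 0.996 or more. Summed melanocyte markers ran from 23674 to 24470 CPM in OVA and from 24068 to 24467 CPM in WT under IFN-γ, with all 7 of 7 detected. T cell markers summed to 3.43 to 4.18 CPM in OVA and 3.24 to 3.86 CPM in WT, with 7 of 13 at 0, among them Cd3e and Cd3d. Macrophage and dendritic cell markers summed to 3.35 to 3.68 and 3.46 to 5.04 CPM, with 4 of 11 at 0, Ptprc among them. Fibroblast markers summed to 9.52 to 10.6 CPM in OVA and 12.7 to 13.9 CPM in WT, endothelial markers to 12.75 to 16.04 and 14.3 to 14.5 CPM, and epithelial markers to 1.00 to 1.57 and 0.919 to 1.29 CPM, with 6 of 8 at 0. In bulk RNA, fewer cells of a type and less RNA per cell cannot be told apart.

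Under IFN-γ the lines differed in many genes by small amounts. Of 15526 genes tested, 2399 (15.5%) passed an adjusted p of 0.05 in edgeR's quasi-likelihood test with Benjamini-Hochberg adjustment. Higher in OVA were 1078 genes (6.94%) and lower were 1321 (8.51%), so 44.9% of the calls were higher. With library size as the only scaling, 60.6% of the calls were higher. The median size of a called difference was 0.20 on the log2 scale, against 0.11 over all tested genes, and the median signed difference of all tested genes was -0.00090. At least 2-fold differences were rare, with 70 genes higher (0.451%) and 57 lower (0.367%), and 53 of these 127 lay under 1 CPM in the higher line. DESeq2 called 558 genes higher, and 30 higher and 15 lower at 2-fold. Leaving out WT replicate 2 of the treated libraries lowered the genes called higher to 691 and those at least 2-fold lower to 31. The libraries of the lines did not overlap for 4824 genes (31.1%).

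**Figure D1:**
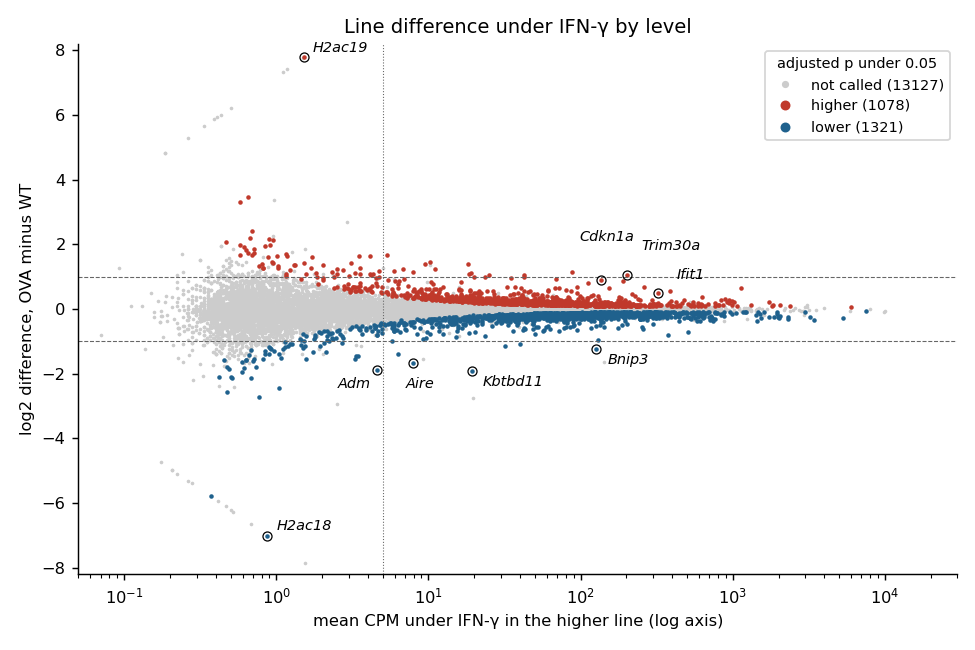
Each point is 1 of 15526 tested genes, plotted by its mean CPM under IFN-γ in the higher line (log axis) and its log2 difference, OVA minus WT. Red and blue points passed the adjusted p of 0.05 (1078 higher, 1321 lower), dashed lines mark 2-fold and the dotted line 5 CPM; the points beyond 4 log2 units had no counts in 1 line, where the fitted size is no measure of the fold.

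Of 29 tested genes of receptor and JAK-STAT signalling, 3 were higher in OVA, 5 were lower and 21 did not pass, with a median of -0.04. These are 10.3% higher and 17.2% lower, against 6.94% and 8.51% of all tested genes. DESeq2 called 1 higher and 1 lower. Leaving out 1 library gave 1 to 3 higher, 1 without WT replicate 1, OVA replicate 1 or OVA replicate 3 under IFN-γ. It gave 1 to 4 lower, 1 without WT replicate 2 or OVA replicate 1 under IFN-γ. The receptor subunits differed by 0.01 (Ifngr1, SE 0.07, adjusted p = 0.926) and 0.03 (Ifngr2, SE 0.05, adjusted p = 0.741). Irf1, an early target that induces later genes, was at 684, 693 and 727 CPM in WT and at 638, 665 and 679 CPM in OVA. The Irf1 groups did not overlap, and the difference of -0.09 was called at an adjusted p of 0.0419, but the call was lost in 14 of 20 other settings, with an adjusted p of up to 0.208. The feedback inhibitor Socs3 was lower in OVA by 0.26 on the log2 scale (49.1, 54.0 and 56.1 CPM in WT against 43.4, 43.6 and 45.8 CPM). Irf7, a factor that amplifies antiviral genes, was higher at 67.3, 63.1 and 65.8 CPM in OVA against 51.9, 51.2 and 52.3 CPM (log2 0.34, SE 0.04, adjusted p = 1.75e-06). Both genes were separated by library, each in its own direction.

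Of 26 tested class I presentation genes, 22 did not pass, 1 was higher and 3 were lower in OVA, with a median of -0.02. The share called, 15.4%, was near the 15.5% of all tested genes. Leaving out 1 library gave 0 to 5 higher, with 5 without WT replicate 3 under IFN-γ and 0 without WT replicate 1 or 2 or OVA replicate 2 or 3. H2-K1 encodes the class I heavy chain that presents the best known ovalbumin peptide to T cells in the strain that B16 cells come from. H2-K1 was at 696, 713 and 745 CPM in WT and at 609, 624 and 616 CPM in OVA. All 3 OVA libraries lay below all 3 WT libraries, a difference of -0.22 (SE 0.03, adjusted p = 2.30e-06). H2-D1, the other classical heavy chain, differed by -0.05 (SE 0.03, adjusted p = 0.247). H2-Q4, a nonclassical gene, was lower by 0.13 on the log2 scale (194, 195 and 195 CPM in WT, 177, 178 and 179 CPM in OVA). The light chain B2m was higher by 0.08 (1724, 1698 and 1744 CPM against 1794, 1799 and 1879.8 CPM), a call lost in 5 of 20 other settings with an adjusted p of up to 0.159. The third lower member was H2-Q10, at 3.94 CPM in OVA and 5.94 CPM in WT on average. These class I genes resemble one another in sequence, and how reads shared by them were counted is not given in the sources used here.

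Of the class I peptide supply genes named here, none was called by edgeR. Tap1, which pumps peptides into the endoplasmic reticulum, differed by 0.01 (SE 0.03). The immunoproteasome subunits Psmb9 and Psmb8 differed by -0.0043 and 0.12, with adjusted p of 0.959 and 0.0507. The Psmb8 libraries did not overlap, at 81.9, 84.7 and 89.0 CPM in WT and at 92.7, 90.0 and 94.2 CPM in OVA, and Psmb8 passed in 6 of 20 other settings, limma-voom among them, with an adjusted p of 0.0146 to 0.214. Nlrc5, the class I transactivator, differed by -0.05. In class II presentation, 1 of 12 tested genes was called (8.33%, against 15.5% of all tested genes). Cd74, the invariant chain, was at 84.2, 89.4 and 89.7 CPM in WT and at 102, 102 and 108 CPM in OVA, all above WT (log2 0.24, SE 0.04, adjusted p = 7.47e-05). Its inducer Ciita was at 72.8, 66.9 and 67.3 CPM in WT and at 68.8, 68.3 and 69.0 CPM in OVA, which overlapped (log2 -0.01).

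Cd274, which encodes PD-L1, was at 210.0, 214 and 200.2 CPM in WT and at 210.5, 216 and 214 CPM in OVA, overlapping ranges with a difference of 0.04 (SE 0.03, adjusted p = 0.525). Of 18 tested checkpoint and NK ligands, 2 were higher and 2 were lower (11.1% each, against 6.94% and 8.51% of all tested genes). Lgals9, a galectin that binds TIM-3, was higher in OVA (180.2, 181 and 193 CPM against 145, 140 and 151 CPM, log2 0.35, adjusted p = 3.73e-08), and Nectin2, a ligand of DNAM-1 and TIGIT, by 0.20. Lgals3 was lower by 0.17 on the log2 scale. Of 15 tested chemokines and cytokines, 3 were higher (20%) and 1 was lower (6.67%), with a median of 0.12. Cxcl10, which attracts T cells through CXCR3, was at 283, 284 and 295 CPM in WT and at 302, 312 and 319.9 CPM in OVA, all above WT (log2 0.12, SE 0.03, adjusted p = 0.00744). Ccl5, another T cell chemokine, was higher by 0.46, a call lost with DESeq2 (highest adjusted p 0.0515), and Cxcl9 differed by 0.22 with an adjusted p of 0.424.

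Antiviral genes were the part of the IFN-γ response that was most often higher in OVA among the lists compared here. Of 47 tested members, 32 were higher (6.94% of all tested genes were), 15 did not pass and none was lower, by edgeR, DESeq2 or limma-voom, or at an unadjusted p under 0.05 in edgeR. The count of higher members ran from 30 to 34 over the other settings apart from a threshold of 0.01. Their median difference was 0.22 against -0.00090 over all tested genes. The lists and their members were chosen with earlier results of these data known, so such shares describe the lists. Ifit1 (ENSMUSG00000034459), which binds foreign RNA caps, was at 227, 227 and 235 CPM in WT and at 321, 320.2 and 331 CPM in OVA. Usp18 (ENSMUSG00000030107), which removes ISG15 and dampens type I receptor signalling, was at 64.1, 64.5 and 63.2 CPM in WT and at 112, 113 and 113 CPM in OVA. Oas1a (ENSMUSG00000052776), a sensor of double-stranded RNA, was at 95.2, 95.3 and 99.4 CPM in WT and at 149.5, 149 and 159.7 CPM in OVA. In each of the 3 genes every OVA library lay above every WT library, by more than the spread within either group. Their log2 differences were 0.50 (SE 0.03, adjusted p = 1.53e-12) for Ifit1, 0.82 (SE 0.04, adjusted p = 1.32e-15) for Usp18 and 0.66 (SE 0.04, adjusted p = 8.39e-14) for Oas1a.

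Other antiviral genes lay on the same side at varied size. Isg15, a ubiquitin-like modifier, was at 163, 164 and 189 CPM in WT and at 217, 231 and 231 CPM in OVA (log2 0.39, adjusted p = 3.49e-05). Ifi44, of unclear function, was higher by 0.68 and Oas1g by 0.66. Ifit3, a partner of Ifit1, was higher by 0.29. Among genes outside the antiviral list, Trim30a (ENSMUSG00000030921), a TRIM protein that restrains innate signalling, was at 103, 94.8 and 97.6 CPM in WT and at 202, 201 and 204 CPM in OVA. That is 2.05-fold higher (log2 1.04, SE 0.03, adjusted p = 8.28e-19), with all OVA libraries above WT in the plot of levels by library. Ddx60, a helicase of RNA sensing, was at 35.2, 36.4 and 37.5 CPM in WT and at 67.1, 72.1 and 69.0 CPM in OVA (log2 0.93, adjusted p = 3.22e-14). Antiviral genes that did not pass included Samhd1, Eif2ak2 and Mx1, at -0.04, -0.03 and 0.05, which were picked after their values were seen.

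Promoters of some of these genes are shown with 1 kind of interferon element each, beside that of Irf1 from the JAK-STAT core. Only genes whose window held the element are shown, so its presence was set by the choice. Each line gives the 250 bases before the annotated start from RefSeq on GRCm38.p6, read 5′ to 3′ on the gene's strand. Capitals mark matches to the ISRE letters (GAAA, any pair of bases, GAAA) in Ifit1, Oas1a and Trim30a and to the GAS letters TTCNNNGAA in Irf1, on either strand, with overlapping matches joined.
Ifit1 (chr19:34640639-34640888, plus strand): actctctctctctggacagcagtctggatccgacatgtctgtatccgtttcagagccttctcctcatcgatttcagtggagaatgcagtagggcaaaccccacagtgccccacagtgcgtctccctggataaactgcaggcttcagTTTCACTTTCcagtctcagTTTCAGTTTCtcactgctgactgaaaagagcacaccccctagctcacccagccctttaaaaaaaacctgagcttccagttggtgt
Oas1a (chr5:120907526-120907775, minus strand): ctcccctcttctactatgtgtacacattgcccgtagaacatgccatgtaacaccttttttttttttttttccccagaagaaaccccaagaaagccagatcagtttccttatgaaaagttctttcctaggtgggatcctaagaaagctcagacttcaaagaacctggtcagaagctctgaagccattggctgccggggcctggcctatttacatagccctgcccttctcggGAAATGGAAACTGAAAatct
Trim30a (chr7:104465194-104465443, minus strand): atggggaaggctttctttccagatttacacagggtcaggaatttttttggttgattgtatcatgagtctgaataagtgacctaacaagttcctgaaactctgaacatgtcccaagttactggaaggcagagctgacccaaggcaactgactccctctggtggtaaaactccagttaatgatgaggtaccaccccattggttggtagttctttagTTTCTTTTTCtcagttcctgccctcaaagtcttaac
Irf1 (chr11:53769764-53770013, plus strand): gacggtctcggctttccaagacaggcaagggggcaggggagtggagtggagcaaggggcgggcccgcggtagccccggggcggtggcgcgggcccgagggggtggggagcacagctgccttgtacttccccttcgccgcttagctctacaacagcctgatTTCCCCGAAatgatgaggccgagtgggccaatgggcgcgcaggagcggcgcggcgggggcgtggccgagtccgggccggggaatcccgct
The window of Ifit1 held 2 ISRE matches, 94 and 75 bases before the start, and that of Trim30a 1, 26 bases before it. In Oas1a, 2 overlapping ISRE matches lay 4 bases before the start, and its window also held 1 GAS match, which is not in capitals. Trim30a and Irf1 have 2 windows each in the table, and the one not shown held neither ISRE nor GAS letters. In the Irf1 window shown, the single GAS match lay 81 bases before the start. Usp18 has no window in the table, and that of Ifi44 held neither ISRE nor GAS letters.

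Among the 826 genes induced at least 2-fold by IFN-γ over both lines (5.32% of those tested), 156 were higher in OVA (18.9%), 57 were lower (6.90%) and 613 did not pass. Of all tested genes, 6.94% were higher and 8.51% lower. The median line difference of the induced genes was 0.07. ISRE letters were found in the windows of 34 of 107 induced genes that were higher in OVA (31.8%), of 49 of 372 that did not pass (13.2%) and of 3 of 41 that were lower (7.32%). Over all tested genes with a window, 338 of 10173 held them (3.32%). GAS letters were found in 12 of 107 (11.2%), 36 of 372 (9.68%) and 12 of 41 (29.3%) windows of the same groups, against 7.14% of all. A gene with several windows was counted when any of them held the letters. Windows were at hand for only part of each group, and a match of letters is a description and not a bound site.

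**Figure D2:**
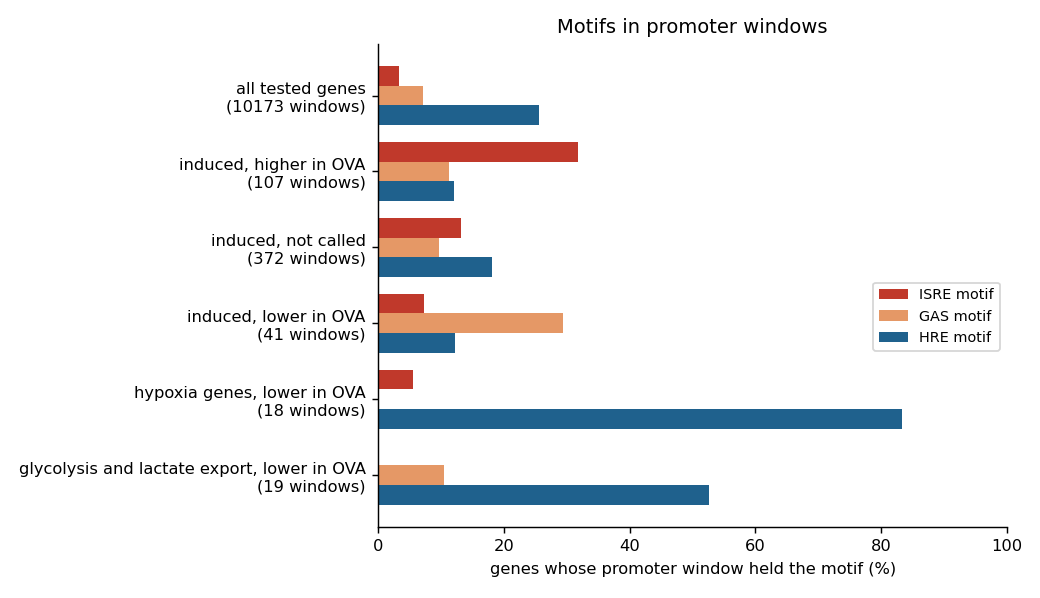
Bars give the percentage of genes whose 250 bases before the start held the ISRE, GAS or HRE letters on either strand, for all tested genes and for groups of genes by their call in OVA against WT under IFN-γ. ISRE stands at 31.8% in induced genes higher in OVA, GAS at 29.3% in induced genes lower in OVA, and HRE at 83.3% in hypoxia genes lower in OVA, against 3.32%, 7.14% and 25.5% of all tested genes.

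The IFN-inducible GTPases, which attack the vacuoles of intracellular pathogens, were split. Of 20 tested entries, 8 were higher in OVA, 3 were lower and 9 did not pass, with a median of -0.01. These are 40% higher and 15% lower, against 6.94% and 8.51% of all tested genes. Gbp11 was at 65.5, 64.8 and 72.4 CPM in WT and at 93.1, 93.7 and 98.0 CPM in OVA (log2 0.49, adjusted p = 1.94e-09). Gbp5 was on the other side, at 74.6, 74.5 and 78.2 CPM in WT and 61.5, 61.0 and 67.7 CPM in OVA, lower by 0.26 on the log2 scale (adjusted p = 0.00025). Irgm2 was higher by 0.17, and Gbp2, one of the most abundant members at 2879.9 to 3204 CPM, differed by 0.06 (adjusted p = 0.140). In all of the GTPases named here but Gbp2 the groups did not overlap, as in 31.1% of all tested genes. Gbp11, Gbp5 and Irgm2 were named as the called members with the largest differences, so this is no separate result. Of the 11 tested GTPases with a promoter window, 10 held ISRE letters, whether called in either direction or not. Many of these genes are near-identical copies, so their single values are uncertain.

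**Figure D3:**
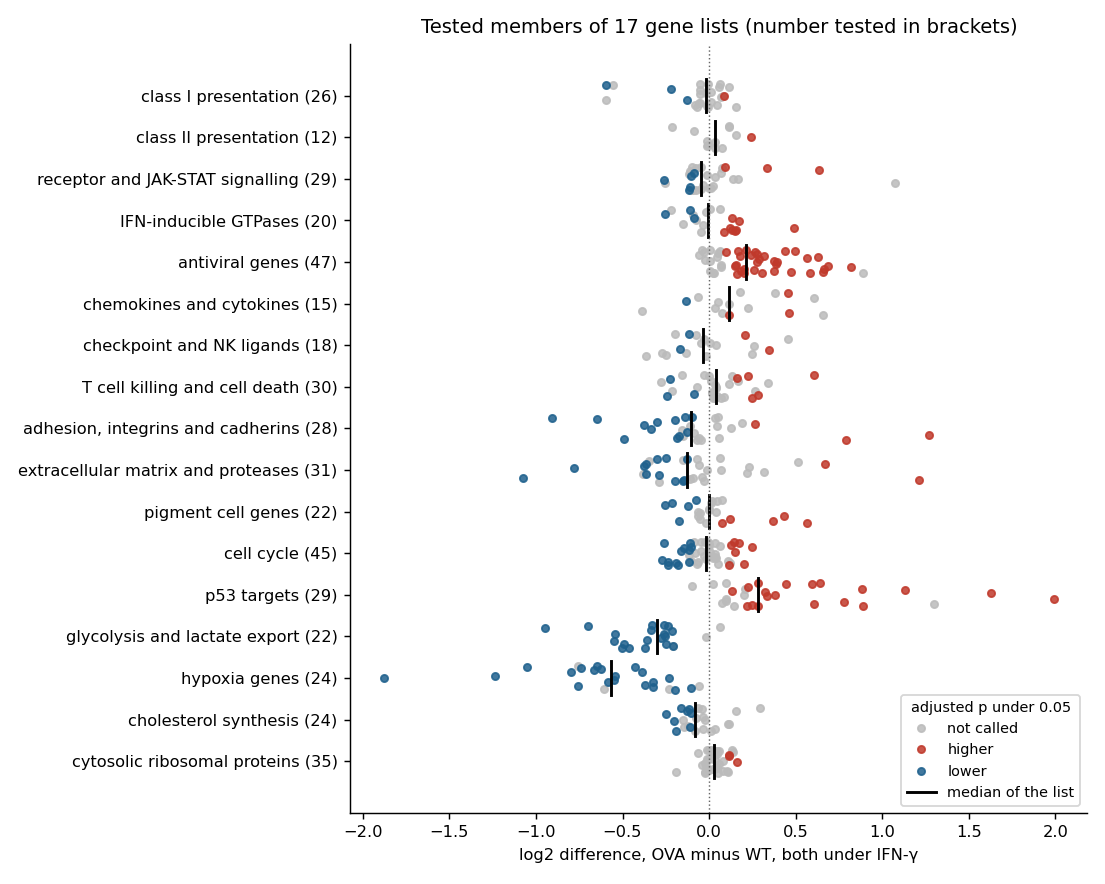
Each point is 1 tested member of 17 gene lists, plotted by its log2 difference, OVA minus WT, both under IFN-γ. Red members were called higher, blue lower and grey did not pass an adjusted p of 0.05, and black bars mark the list medians, 0.22 for antiviral genes, 0.28 for p53 targets, -0.30 for glycolysis and -0.57 for hypoxia genes.

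Targets of p53, the tumour suppressor that halts the cell cycle after DNA damage, were higher in OVA in 19 of 29 tested members (6.94% of all tested genes were). None was lower by edgeR, DESeq2 or limma-voom, or at an unadjusted p under 0.05. Their median difference was 0.28. This list too was chosen with earlier results of these data known, so its share is a description. Cdkn1a (ENSMUSG00000023067), which encodes the cyclin-dependent kinase inhibitor p21, was at 71.7, 77.3 and 70.7 CPM in WT and at 136, 135 and 137 CPM in OVA. Trp53inp1 (ENSMUSG00000028211), which promotes p53 activity, was at 40.6, 38.2 and 40.7 CPM in WT and at 85.8, 87.6 and 88.5 CPM in OVA. Ccng1, a cyclin that acts in the p53 feedback loop and was picked after its values were seen, was at 105, 107 and 99.1 CPM in WT and at 183, 196 and 194 CPM in OVA. Each of these genes had all OVA libraries far above all WT libraries, at 0.89 (SE 0.04, adjusted p = 7.18e-17), 1.13 (SE 0.04, adjusted p = 8.25e-18) and 0.88 (adjusted p = 3.20e-17) on the log2 scale. Btg2, an antiproliferative gene at 1.03 to 1.68 CPM in WT and 3.49 to 5.15 CPM in OVA, was higher by 1.63 (SE 0.22, adjusted p = 3.67e-06). Sesn2 was higher by 0.34, and the death genes Bbc3, which encodes PUMA, and Bax by 0.61 and 0.28. Trp53 itself was higher by 0.13 and Mdm2, its ubiquitin ligase, by 0.32, both picked after their values were seen.

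Of 30 tested genes of T cell killing and cell death, 5 were higher (16.7%) and 3 were lower (10%), with a median of 0.04. Of all tested genes, 6.94% were higher and 8.51% lower. The 2 with the largest difference, Bbc3 and Bax, also stand in the p53 list. Bbc3 was at 7.31, 7.98 and 6.70 CPM in WT and at 11.8, 10.3 and 11.4 CPM in OVA. Tnfrsf10b, the mouse TRAIL receptor, was higher by 0.25, a call lost in 6 of 20 other settings with an adjusted p of up to 0.141. In the cell cycle list 7 of 45 tested genes were higher, 12 were lower and 26 did not pass, with a median of -0.02, against 6.94% higher and 8.51% lower of all tested genes. With library size as the only scaling 7 were lower, and without WT replicate 1 or OVA replicate 2 under IFN-γ 8 were. Mki67, a marker of cycling cells, was at 440.1, 426 and 392.3 CPM in WT and at 367, 359 and 342 CPM in OVA, with no overlap (log2 -0.24, SE 0.04, adjusted p = 0.00019). The mitotic genes Cenpf and Ccnb2 were lower by 0.27 and 0.26 on the log2 scale, and Ccne2, a cyclin of S phase entry, was higher by 0.25. The Ccne2 call was lost in 3 of 20 other settings, with an adjusted p of up to 0.0734.

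**Figure D4:**
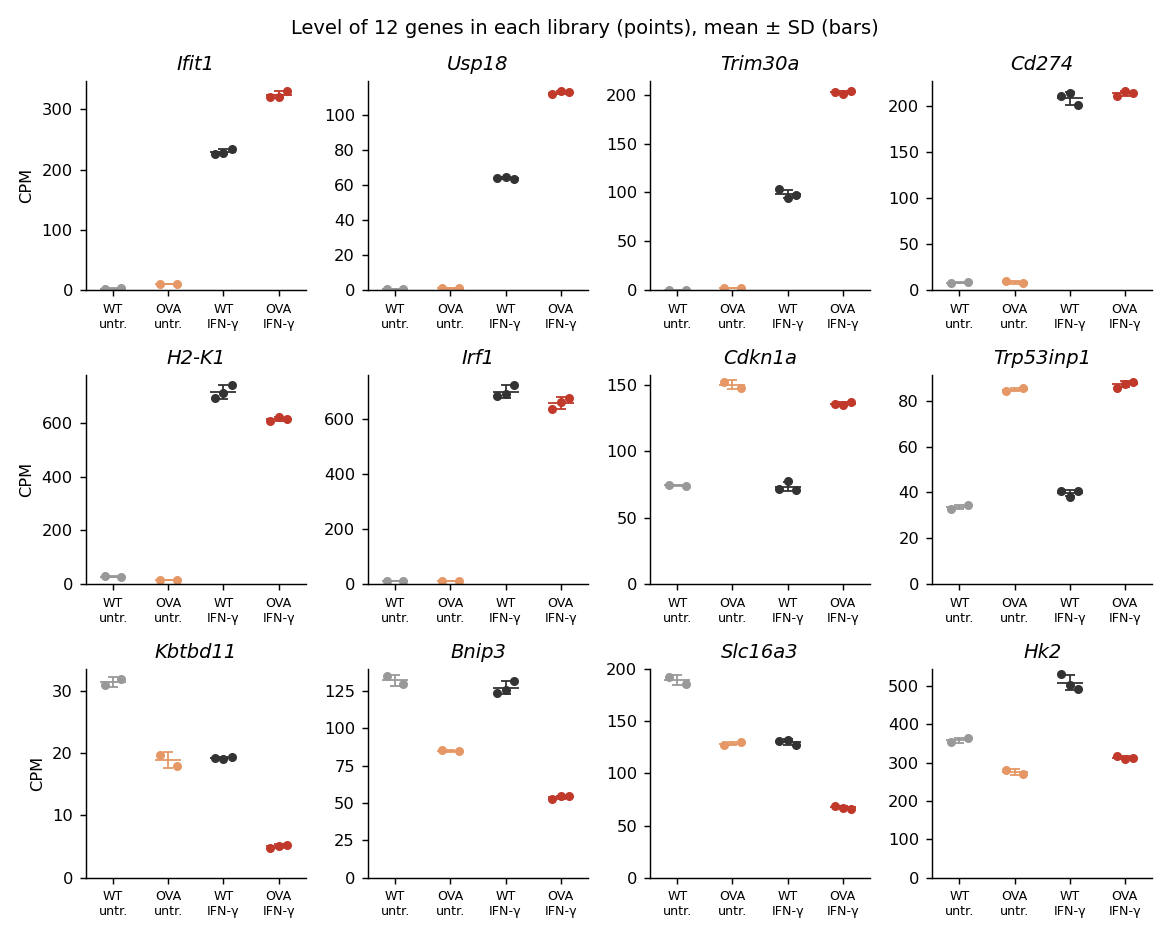
Points give the CPM of 12 genes in each of the 10 libraries, with untreated WT (grey), untreated OVA (orange), WT under IFN-γ (black) and OVA under IFN-γ (red), and bars the mean ± SD. Ifit1, Usp18, Trim30a, Cdkn1a and Trp53inp1 stand higher in OVA under IFN-γ, Kbtbd11, Bnip3, Slc16a3, Hk2 and H2-K1 lower, and the libraries of Cd274 overlap.

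Hypoxia genes, the targets of the HIF factors, were lower in OVA in 20 of 24 tested members, while 8.51% of all tested genes were lower. No member was higher by edgeR, DESeq2 or limma-voom, or at an unadjusted p under 0.05. Their median difference was -0.57. The members were chosen with earlier results of these data known. Bnip3 (ENSMUSG00000078566), a mitophagy receptor, was at 124, 125 and 132 CPM in WT and at 52.6, 54.3 and 54.4 CPM in OVA. Ero1a, an oxidase of the endoplasmic reticulum, was at 385, 383 and 366 CPM in WT and at 216, 219 and 217 CPM in OVA. Ak4, a mitochondrial adenylate kinase, was at 49.2, 52.5 and 49.3 CPM in WT and at 29.4, 29.0 and 30.8 CPM in OVA. In each the lowest WT library was well above the highest OVA library. The log2 differences were -1.24 (SE 0.04, adjusted p = 2.29e-19) for Bnip3, which is 2.36-fold lower, -0.80 (SE 0.03, adjusted p = 6.13e-18) for Ero1a and -0.76 (SE 0.05, adjusted p = 3.15e-12) for Ak4. Adm, a vasodilator peptide, was lower by 1.88 on the log2 scale at low levels (4.71, 4.63 and 4.50 CPM against 1.06, 1.01 and 1.67 CPM), and Egln3, an oxygen-sensing hydroxylase, by 1.05. Vegfa, the angiogenic growth factor, was lower by 0.43 (80.1, 80.9 and 81.9 CPM against 58.9, 61.5 and 60.1 CPM). Hif1a itself was lower by 0.10 on the log2 scale, a member picked after its value was seen.

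The windows of 3 of these genes are shown because the HRE letters ACGTG were common in the group. Only genes whose window held the letters are shown, and that of Adm did not hold them. They hold the 250 bases before the start from RefSeq on GRCm38.p6, 5′ to 3′ on the gene's strand, and capitals mark ACGTG on either strand, which in CACGTG overlaps itself and matches an E-box as well.
Bnip3 (chr7:138909507-138909756, minus strand): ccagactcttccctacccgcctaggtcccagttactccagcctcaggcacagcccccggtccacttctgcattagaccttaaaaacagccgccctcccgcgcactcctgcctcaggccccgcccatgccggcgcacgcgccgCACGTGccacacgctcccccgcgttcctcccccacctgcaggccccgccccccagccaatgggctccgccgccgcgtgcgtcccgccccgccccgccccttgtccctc
Ero1a (chr14:45318573-45318822, minus strand): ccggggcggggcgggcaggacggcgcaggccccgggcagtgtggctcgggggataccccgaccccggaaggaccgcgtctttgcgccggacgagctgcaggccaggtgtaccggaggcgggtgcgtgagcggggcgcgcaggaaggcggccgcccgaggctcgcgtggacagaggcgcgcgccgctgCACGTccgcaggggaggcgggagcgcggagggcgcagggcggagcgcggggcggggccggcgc
Slc16a3 (chr11:120948817-120949066, plus strand): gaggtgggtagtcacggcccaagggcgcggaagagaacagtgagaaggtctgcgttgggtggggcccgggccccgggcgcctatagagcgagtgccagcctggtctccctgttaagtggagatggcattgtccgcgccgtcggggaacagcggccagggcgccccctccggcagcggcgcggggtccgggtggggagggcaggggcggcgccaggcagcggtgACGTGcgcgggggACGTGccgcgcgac
Bnip3 held 2 overlapping matches 102 bases before the start, Ero1a 1 match 58 bases before it, and Slc16a3 2 matches 22 and 9 bases before it. The letters were found in 15 of 18 windows of hypoxia genes lower in OVA (83.3%), in 10 of 19 windows of glycolysis genes lower in OVA (52.6%) and in 25.5% of the windows of all tested genes. Among all genes lower in OVA they were found in 271 of 984 windows (27.5%). The hypoxia list was assembled from genes known to answer to HIF, so the share describes the list.

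Transcripts of most glycolysis genes were lower in OVA along the pathway. Of 22 tested genes of glycolysis and lactate export, 19 were lower (8.51% of all tested genes were) and the median difference was -0.30. None was higher by edgeR, DESeq2 or limma-voom, or at an unadjusted p under 0.05. Here as well the list was chosen with earlier results of these data known. Hk2, the hexokinase that commits glucose, was at 532, 502 and 492 CPM in WT and at 317, 308 and 313 CPM in OVA. Slc16a3, which exports lactate, was at 131, 132 and 127 CPM in WT and at 69.2, 67.3 and 65.7 CPM in OVA. Pdk1, which keeps pyruvate from the mitochondrion, was at 79.1, 79.7 and 80.6 CPM in WT and at 53.1, 54.6 and 55.8 CPM in OVA. None of these ranges overlapped, with log2 differences of -0.70 (SE 0.03, adjusted p = 2.28e-16) for Hk2, -0.95 (SE 0.04, adjusted p = 8.54e-18) for Slc16a3 and -0.55 (SE 0.04, adjusted p = 1.86e-11) for Pdk1. Abundant enzymes of the later steps, picked after their values were seen, were lower by less, Ldha by 0.36, Eno1 by 0.33 and Gapdh by 0.26 on the log2 scale. Pygl, which releases glucose from glycogen, was lower by 0.99 at 5.52 to 6.02 CPM in WT and 2.79 to 3.02 CPM in OVA.

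Mitochondrial respiration genes did not share this pattern in size. Of 29 tested nuclear genes of oxidative phosphorylation, 2 were lower (6.90%) and 0 were higher, against 8.51% and 6.94% of all tested genes. At an unadjusted p under 0.05 in edgeR 0 were higher as well, and the median was -0.02. DESeq2 called none of them. The calls of Sdhc and Uqcrc1, subunits of complexes II and III, were at -0.12 and -0.09 and were lost in 13 and 12 of 20 other settings. Of 12 tested mitochondrially encoded genes, 4 were lower (33.3%). Among them mt-Nd5 was at 2117, 2120.3 and 1871 CPM in WT and at 1709, 1793 and 1709.5 CPM in OVA (log2 -0.23, adjusted p = 0.00432). Untreated, 2 of the 12 were higher and 0 lower, against 3.54% and 3.02% of all tested genes. The median of the 12 was 0.14 untreated and -0.06 under IFN-γ. In cholesterol synthesis 8 of 24 tested genes were lower (33.3%) and 0 were higher (2 at an unadjusted p under 0.05), with a median of -0.08. Lss, which closes the sterol rings, was lower by 0.25 on the log2 scale and the regulator Srebf2 by 0.20.

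Pigment cell genes were called in both directions, with 5 of 22 tested members higher and 5 lower. These are 22.7% each, against 6.94% higher and 8.51% lower of all tested genes. Mitf, the master factor of melanocytes, was at 850.4, 842 and 810.45 CPM in WT and at 821, 831 and 817 CPM in OVA (log2 -0.02, SE 0.03, adjusted p = 0.691). Tyr, the enzyme that starts melanin synthesis, differed by 0.01 (SE 0.03), and its libraries overlapped at 658 to 695 CPM in WT and 663 to 689 CPM in OVA. Trpm1, a cation channel driven by Mitf, was at 263, 257 and 269 CPM in WT and at 375, 391.6 and 398 CPM in OVA, with no overlap (log2 0.56, SE 0.03, adjusted p = 2.18e-14). The melanosome proteins Oca2 and Gpr143 were higher by 0.43 and 0.37. Pmel, which forms melanosome fibrils, was higher by 0.07, a call lost in 7 of 20 other settings with an adjusted p of up to 0.0914.

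Adhesion and matrix genes were more often lower than higher in OVA. Of 28 tested adhesion genes, 12 were lower and 3 were higher, with a median of -0.10, while 8.51% of all tested genes were lower and 6.94% higher. Of 31 tested matrix and protease genes, 12 were lower and 2 were higher, with a median of -0.13. Loxl2, which crosslinks collagen, was at 38.5, 41.4 and 40.6 CPM in WT and at 18.8, 20.1 and 18.5 CPM in OVA, all below WT (log2 -1.07, SE 0.06, adjusted p = 1.82e-14). Thbs1, a matrix glycoprotein, was at 126, 124 and 118 CPM in WT and at 95.5, 95.1 and 92.8 CPM in OVA (log2 -0.38, adjusted p = 3.37e-08). Itgb3, the integrin beta 3 chain, was lower by 0.65 on the log2 scale and Fn1, fibronectin, by 0.30, both picked after their values were seen. Spp1, which encodes osteopontin, was higher by 1.21 at low level (0.974 to 1.29 CPM in WT, 2.52 to 2.96 CPM in OVA), and the cadherin Cdh13 was lower by 0.91 at 2.16 to 2.51 and 0.948 to 1.46 CPM. These 2 low genes did not overlap between lines. Fibroblast markers, whose summed levels are given above, hold 2 genes called lower and 1 called higher among 4 tested, Col1a1, Pdgfrb and Col1a2 among the named genes, and their part in the matrix result was not tested.

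Growth signalling and early response genes moved in both directions. Of 19 tested growth factor and kinase genes, 4 were higher and 4 were lower (21.1% each, against 6.94% and 8.51% of all tested genes). Etv5, a factor downstream of ERK, was higher by 1.24 at 0.920 to 1.26 CPM in WT and 2.36 to 2.74 CPM in OVA. Met, the receptor of hepatocyte growth factor, was at 2377, 2325 and 2197 CPM in WT and at 1863, 1892 and 1826 CPM in OVA, lower by 0.31 on the log2 scale (adjusted p = 2.65e-09). Pdgfrb was lower by 0.78 and Id3, an inhibitor of differentiation factors, higher by 0.55. Of 23 tested early response genes, 5 were higher and 5 were lower (21.7% each). Egr1, an early factor, was at 62.4, 63.5 and 62.6 CPM in WT and at 39.7, 42.0 and 41.2 CPM in OVA (log2 -0.62, SE 0.04, adjusted p = 1.95e-11). Ier3 was lower by 0.69 on the log2 scale, at 34.8, 36.3 and 37.5 CPM in WT and 21.3, 23.5 and 22.6 CPM in OVA. Both genes had all OVA libraries below WT.

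Of 32 tested genes of the unfolded protein and integrated stress responses, 8 were higher and 8 were lower, against 6.94% and 8.51% of all tested genes. Chac1, a target of ATF4, was higher by 0.33 (41.7, 39.1 and 38.9 CPM against 49.7, 50.2 and 50.6 CPM, adjusted p = 1.00e-05), and the chaperone partner Dnajb9 by 0.28. Of 10 tested complement genes, 1 was higher (10%) and 2 were lower (20%). C4b was at 294, 289 and 293 CPM in WT and 258, 261 and 249.7 CPM in OVA, lower by 0.19 on the log2 scale, and C1s1 was lower by 0.46. Of 15 tested NF-kB genes, 2 were higher and 2 were lower (13.3% each), Relb at 0.50 and Nfkb1 at -0.27. Of 35 tested cytosolic ribosomal proteins, 3 were higher (8.57%) and 0 were lower in edgeR (0 also at an unadjusted p under 0.05), with a median of 0.03. DESeq2 and limma-voom called 0 lower as well, with 1 at an unadjusted p under 0.05 in DESeq2, and 1 was called lower without a filter and with a replicate block. Without WT replicate 3 under IFN-γ the count of higher genes was 9.

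Over all tested genes, the differences of at least 2-fold with at least 5 CPM comprised 20 entries, 14 higher and 6 lower in OVA, among them Bnip3, Loxl2 and Trp53inp1 from the lists above. Kbtbd11, a BTB and kelch domain protein, was at 19.2, 19.1 and 19.4 CPM in WT and at 4.76, 5.17 and 5.30 CPM in OVA. It was 3.79-fold lower (log2 -1.92, SE 0.09, adjusted p = 5.84e-16), the largest decrease among them. Aire, known for the display of self antigens in the thymus, was at 7.15, 8.39 and 8.17 CPM in WT and at 2.74, 2.42 and 2.29 CPM in OVA (log2 -1.67, adjusted p = 5.25e-10). Selenbp1, a selenium-binding protein, was at 31.9, 32.3 and 31.6 CPM in WT and at 13.9, 13.7 and 15.7 CPM in OVA (log2 -1.15). In all of them the groups were well apart.

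Among entries with a symbol that is no pseudogene or predicted gene, the largest increases by the same measure were Inka2, Kcnj13, Abca12 and Cd209c. Inka2, an inhibitor of the kinase PAK4, was at 1.46, 2.11 and 1.47 CPM in WT and at 5.65, 4.84 and 5.63 CPM in OVA (log2 1.67, SE 0.17, adjusted p = 2.81e-08). Kcnj13, a potassium channel, was at 4.06, 3.45 and 3.87 CPM in WT and at 10.0, 10.5 and 10.4 CPM in OVA (log2 1.44). Abca12, a lipid transporter, was at 7.47, 6.64 and 6.81 CPM in WT and at 18.03, 18.3 and 18.6 CPM in OVA (log2 1.39). In each of them the OVA libraries were all more than the highest WT library. Cd209c, a lectin, was higher by 1.25, Dglucy by 1.19, Bcan, a brain proteoglycan, by 1.16 and the orphan receptor Gpr37 by 1.00. Ass1, which makes arginine precursors in the urea cycle, was at 19.002, 17.8 and 17.2 CPM in WT and at 33.6, 33.3 and 37.0 CPM in OVA (log2 0.95, adjusted p = 4.35e-12). H1f2, a linker histone, was higher by 1.00, with 8.99, 8.80 and 12.1 CPM in WT and 20.04, 18.7 and 21.2 CPM in OVA.

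Whether these line differences were also seen without IFN-γ was read from the 4 untreated libraries, which are not in the treated groups but share the model and its estimate of the spread. Untreated, 1018 genes differed (6.56%), 549 higher (3.54%) and 469 lower (3.02%) in OVA. Called in the same direction in both were 640 genes, 26.7% of the treated calls and 62.9% of the untreated calls, and 7 were called in opposite directions. Leaving out any 1 untreated library lowered the 640 to between 314 and 361, and the untreated groups have 2 libraries each. Of the 20 entries of at least 2-fold and 5 CPM, 12 were also called untreated in the same direction. Without the CPM limit this held for 25 of 127 (19.7%), and 102 were not called untreated. Among p53 targets 18 of 29 were higher untreated and 15 were higher in both; Cdkn1a was at 74.7 and 73.8 CPM in untreated WT and 152 and 148 CPM in untreated OVA (log2 1.02). Among hypoxia genes 17 of 24 and among glycolysis genes 19 of 22 were lower untreated, with medians of -0.26 and -0.23. Among antiviral genes 18 of 47 were higher untreated, with a median of 0.40, and 15 were higher in both. Some of these untreated differences rest on few counts, as in Ifi44 with 1 count in WT and 2 in OVA, so the median is uncertain.

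**Figure D5:**
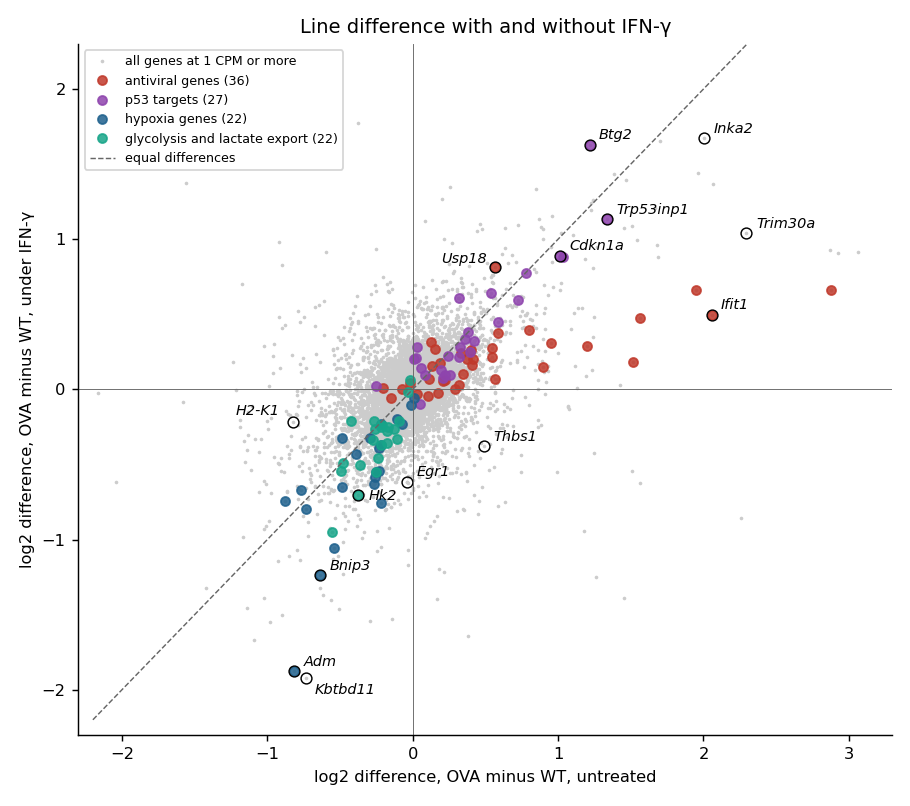
Each point is 1 of 12669 genes with at least 1 CPM in both treatments, plotted by its log2 difference, OVA minus WT, untreated (horizontal) and under IFN-γ (vertical), with 4 gene lists coloured, named genes circled and 11 genes outside the axes. The p53 targets lie near the dashed line of equal differences, Bnip3, Adm and Kbtbd11 lie below it, and Ifit1 and Trim30a lie to its right.

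The test of the difference between the treated and untreated line differences, which equals the difference between the IFN-γ responses of the lines, called 79 genes (0.509%), 18 with a positive and 61 with a negative difference. Without WT replicate 3 under IFN-γ it called 218 genes, and without any 1 untreated library 31 to 47. For 49 of the 63 genes called in both tests, the difference had the same sign as the line gap under IFN-γ. Of these, 10 were higher and 39 lower in OVA under IFN-γ. The 49 hold genes whose gap was wider and also genes whose gap turned, as in Ccn1 below. Of the 29 p53 targets 0 were called for this difference, by edgeR, DESeq2 or limma-voom, while 1 positive and 8 negative differences had an unadjusted p under 0.05 in edgeR. Of the 24 hypoxia genes 5 (3 by DESeq2) and of the 22 glycolysis genes 6 were called by edgeR, each towards lower levels in OVA. Bnip3 was at 135 and 129 CPM in untreated WT and 85.3 and 84.4 CPM in untreated OVA, a line difference of -0.64 that was wider under IFN-γ by 0.60 (adjusted p = 3.94e-07). Kbtbd11 was at 30.9 and 32.0 CPM in untreated WT and 19.8 and 18.01 CPM in untreated OVA, and its line difference went from -0.74 to -1.92 (difference -1.19, adjusted p = 4.62e-07). In Hk2 the line difference went from -0.38 to -0.70 (difference -0.33, adjusted p = 0.000262) and in Slc16a3 from -0.56 to -0.95 (difference -0.39, adjusted p = 8.46e-05). The untreated and treated ranges of both lines are shown for these 4 genes in the plot of levels by library.

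In a further group of genes the gap between the lines was near 0 untreated, or turned, by the test of the difference. Egr1 was at 44.2 and 46.4 CPM in untreated WT and 45.0 and 43.3 CPM in untreated OVA, overlapping, and the difference of the line gaps was -0.58 (adjusted p = 1.90e-05). Thbs1 was higher in untreated OVA by 0.49 (5.02 and 6.39 CPM against 7.89 and 8.17 CPM) and lower under IFN-γ by 0.38, a difference of -0.87 (adjusted p = 0.000262). Ccn1, a matricellular gene that answers to YAP, was at 49.9 and 48.6 CPM in untreated WT and 71.8 and 69.3 CPM in untreated OVA, and at 48.8, 52.8 and 55.6 CPM in WT and 42.9, 44.9 and 45.1 CPM in OVA under IFN-γ. Its line difference turned from 0.52 to -0.24 (difference -0.76, adjusted p = 3.94e-07). Chac1 had a line difference of -0.07 untreated, which was not called, and of 0.33 under IFN-γ (difference 0.40, adjusted p = 0.00469), a call lost in 2 of 19 other settings.

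Interferon genes called for the difference had a larger gap before treatment. Of 47 antiviral genes, edgeR called 7, each with a negative difference, against 0.509% of all tested genes. DESeq2 called 7 negative and 1 positive, and limma-voom called 4 negative. Ifit1 was at 1.82 and 2.86 CPM in untreated WT and 9.70 and 9.79 CPM in untreated OVA, a log2 gap of 2.06 that narrowed to 0.50 under IFN-γ (difference -1.56, adjusted p = 3.94e-07). Oas1g narrowed from 2.87 to 0.66 (difference -2.21, adjusted p = 0.000776) and Cxcl10 from 0.90 to 0.12 (difference -0.79, adjusted p = 0.000307). Every untreated OVA library of Ifit1 and Cxcl10 (5.13 and 4.54 CPM in WT, 8.76 and 9.36 CPM in OVA) lay above untreated WT. H2-K1 narrowed from the other side, from -0.82 untreated (27.9 and 25.6 CPM in WT, 15.3 and 14.9 CPM in OVA) to -0.22 (difference 0.60, adjusted p = 2.10e-05). Usp18 was at 0.718 and 0.784 CPM in untreated WT and 1.26 and 0.974 CPM in untreated OVA, with an untreated adjusted p of 0.394 and no call for the difference (adjusted p = 0.884).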

How the data were processed

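RNA of 10 libraries was sequenced after poly-T selection, per the labels' protocols, and the authors deposited whole-number counts for each Ensembl gene, without normalization. Per the submitters' processing notes, the build was GRCm39 and the tools were featureCounts 1.6.0 and HISAT2 2.0.5. The sources used here give no annotation release, strand setting or treatment of multi-mapping reads, so overlapping, antisense and near-identical genes are uncertain. Tissue is mentioned in the extraction protocol, cell lines everywhere else in the labels. Separate cultures are not stated for the replicates, and p-values then measure only the spread of these libraries, which may be technical. Of 77175 entries, 21805 had no symbol and 39963 no counts.

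All 10 libraries were fitted as 4 groups in edgeR 4.0.16 under R 4.3.3 (TMM, filterByExpr, robust quasi-likelihood F test, two-sided), with Benjamini-Hochberg adjustment over 15526 genes at 0.05. In data simulated with the spread of these libraries the test was checked for recovery of known changes, with the outcome not reported here. Such data cannot show how the test holds for variation between separate cultures. An induced gene has a mean response of both lines of at least 1 log2 unit at that threshold. The members and the 31 gene lists were chosen with earlier results of these data known. Named genes were 26 fixed genes, the 15 largest increases and 15 largest decreases at 5 CPM or more without overlap (7 and 2 predicted symbols passed over), up to 3 called members per list at 1 CPM or more, and 10 genes called for the difference of responses. The text gives a part of them (2 genes are not reported here), and names others as picked after their values were seen. Promoter windows matched 90 of 124 named genes. Same-numbered treated libraries of the lines were not paired by the labels. The alternatives were DESeq2 1.42.0, limma-voom (limma 3.58.1), other scaling, other filters, only the treated libraries, a replicate block, a threshold of 0.01, each library left out and, added after seeing the data, no robust estimation.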

Additional observations from a re-analysis of the deposited data

Results flagged for a closer look

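The responses of the lines to IFN-γ differed by the test of the difference in 79 genes, and 20 genes described here were in this group. The value given is the log2 response of OVA minus that of WT, which is also the treated minus the untreated line difference.

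Genes with a negative difference that were lower in OVA under IFN-γ were Kbtbd11 (-1.19), Thbs1 (-0.87), Ccn1 (-0.76), Bnip3 (-0.60), Egr1 (-0.58), Ak4 (-0.54), mt-Nd5 (-0.43), Slc16a3 (-0.39), Hk2 (-0.33), Pdk1 (-0.30) and Gbp7 (-1.17). Bnip3, Ak4, Slc16a3, Hk2 and Pdk1 belong to the hypoxia or glycolysis lists. Interferon-induced genes with a negative difference and a higher level in OVA were Apol9a (-3.65), Oas1g (-2.21), Ifit1 (-1.56), Oas1a (-1.29), Ifit3 (-0.91) and Cxcl10 (-0.79). Tap1 (-1.12) had a negative difference without a called line difference under IFN-γ. Positive differences were those of H2-K1 (0.60) and Chac1 (0.40).

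For 12 of the 20 the call held in all 19 other settings. It was lost in 9 for mt-Nd5, 8 for Apol9a, 4 for Oas1a and Ifit3, 3 for Tap1, Gbp7 and Pdk1 and 2 for Chac1. Their highest adjusted p values were 0.145 for mt-Nd5, 0.296 for Apol9a, 0.105 for Oas1a, 0.224 for Ifit3, 0.28 for Tap1, 0.213 for Gbp7, 0.142 for Pdk1 and 0.111 for Chac1. The value of Apol9a ran from -6.00 to -2.81 over the settings.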

How the results depend on the processing

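Of 109 named genes called under IFN-γ, 86 kept direction and call in all 20 other settings, 23 lost the call in at least 1, and 2 of 15 not called passed in at least 1. Under IFN-γ, DESeq2 gave 558 genes higher, 30 higher and 15 lower at 2-fold, and 36 induced genes lower; untreated it gave 272 higher and 280 lower, and 385 called in both. A threshold of 0.01 gave 547 higher, 771 lower, 19 lower at 2-fold, 33 induced genes lower, 277 and 237 untreated, 346 in both, and 34 for the difference of responses. Without a low count filter 94 genes were lower at 2-fold and 198 were called for the difference. With 1 CPM in 3 libraries 46 were higher and 31 lower at 2-fold.

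Leaving out 1 library gave 691 to 1228 genes higher, 927 to 1365 lower, 56 to 72 higher and 31 to 80 lower at 2-fold, 231 to 643 and 196 to 545 untreated, 314 to 688 in both, 31 to 218 for the difference, and 125 to 154 induced genes higher and 43 to 57 lower. Fewer samples enter these fits. The lowest counts of genes higher and of 2-fold lower were without WT IFN-γ replicate 2, and the highest difference count without WT IFN-γ replicate 3. A fit of the 6 treated libraries gives no value for untreated, induced or difference results.

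Differences near 0 changed sign. Ciita was at 0.018 with library size alone and from -0.028 to 0.036 without 1 library, and Psmb9 at 0.019, 0.00095 without a filter and from -0.027 to 0.029 without 1 library. Mitf was at 0.0044 with library size alone. Without 1 library, Ifngr1 ran from -0.018 to 0.056, Tap1 from -0.0035 to 0.023 and Tyr from -0.0037 to 0.036. With a replicate block the difference of responses called 305 genes; the other counts stayed within 1.5 times. Deviations of same-numbered treated libraries of the lines correlated at -0.02, -0.05 and 0.07, and not every library correlated best with its own number. Whether treated libraries pair with untreated libraries of the same number was not tested. The cause of these changes was not tested.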

Other observations

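Genes of glycogen metabolism, picked after their values were seen, stood beside the glycolysis genes. Gys1, glycogen synthase, was at 95.9, 93.8 and 92.5 CPM in WT under IFN-γ and at 60.9, 59.6 and 61.3 CPM in OVA, with no overlap (log2 -0.63), and it was lower untreated as well (-0.34). The branching enzyme Gbe1 was lower by 0.37 on the log2 scale, Epm2a, which encodes laforin, by 0.77, and Pgm1, which interconverts glucose phosphates, by 0.32. Other genes of the pathway did not pass, with Ugp2 at -0.03, Gyg1 at -0.01 and Pygb at -0.06.

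Among integrated stress genes, 3 of 32 were called for the difference of responses, all positive (0.509% of all tested genes were called). Ddit3, the death-linked factor CHOP, was lower in untreated OVA by 0.32 on the log2 scale and higher under IFN-γ by 0.25 (85.2, 88.2 and 93.1 CPM in WT, 105, 102 and 109 CPM in OVA), a difference of 0.57 with an adjusted p of 4.01e-06 in edgeR. Trib3, another ATF4 target, differed by -0.40 untreated and -0.02 under IFN-γ. Among cell cycle genes, 4 of 45 were called for the difference, all negative, with Plk1 at 0.21 untreated and -0.07 under IFN-γ and Hmmr at 0.17 and -0.12. These genes were picked after their values were seen.

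The histone genes H2ac18 and H2ac19 gave mirrored values at low counts. H2ac19 had 81 counts over the 3 OVA libraries under IFN-γ and 0 in WT, at least 28.7-fold higher against a floor of 3 counts over the group. H2ac18 had 50 counts in WT and 0 in OVA, at least 15.7-fold lower against the same floor. They are near-identical copies, so how reads were shared between them is uncertain, and intervals and floors cover counting error only.

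Tested genes were placed on chromosomes by gene identifier for 14288 of 15526 (GENCODE M21). Of 548 genes on chromosome 13, 60 were higher in OVA under IFN-γ (10.95%) and 19 lower (3.47%), against 6.94% and 8.51% of all tested genes. The share higher was as large on chromosomes 4 (11.01%) and 11 (10.99%), with 8.08% and 7.33% lower. The median difference of its 370 genes at 5 CPM or more was 0.06, and 0.07 untreated, while the medians of the other autosomes and X ran from -0.03 (chromosome 16) to 0.03 (chromosome 4) under IFN-γ.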
